A study of Mus musculus with 10 samples.

Results

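The 10 genes described here, of 21938 protein-coding genes annotated in the mouse, encode chains of the laminins and both nidogens: Lama1, Lama2, Lama4, Lama5, Lamb1, Lamb2, Lamc1, Lamc3, Nid1 and Nid2. The genes were chosen by name. A binding site (peak) of the transcription factor RBPJ was assigned to a gene when its centre lay in the gene body or in the regulatory domain of the gene. This domain ran from 5 kb upstream to 1 kb downstream of the transcription start site (TSS) and was extended up to the domains of the neighbouring genes, by at most 1 Mb. By this rule 18 of the 11094 peaks were assigned to the 10 genes.

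The peaks came from chromatin immunoprecipitation and sequencing (ChIP-seq) of RBPJ in mouse RD1 cells, which are labelled as brain pericytes and were grown untreated in pericyte medium on dishes coated with collagen I. The methods of the study describe cultured primary brain pericytes. The series has 10 samples in 5 groups of 2 (RBPJ, H3K4me1, H3K4me3, histone H3 and input), and the 8 samples other than RBPJ were not analysed here. Both RBPJ replicates carry the same list of peak positions, byte for byte, so that there was 1 list, with neither a spread between replicates nor a peak height or read depth. A list of positions does not allow the cell type to be checked against its markers, nor can it show how strongly a site was bound or whether a gene was expressed.

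Laminins are heterotrimers of an alpha, a beta and a gamma chain that polymerise into the sheet on which basement membranes are built. Nidogens bridge this sheet and the collagen IV network, mainly through the short arm of the gamma 1 chain. In brain capillaries, pericytes are embedded in the vascular basement membrane, to which endothelial cells, pericytes and astrocytes contribute different laminins. RBPJ is the DNA-binding factor of the Notch pathway. It recruits corepressors when Notch is inactive and coactivators with the cleaved Notch receptor, and TGGGAA is the core of the sequence it recognises.

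The sequences that the results turn on are those of the peaks at the starts of Lamb2, Lamc1, Lamc3, Nid1 and Nid2, and of the peaks with the most TGGGAA sites. They are read from the GRCm38.p6 genome and written 5′ to 3′ on the strand of the gene. Capitals mark TGGGAA, or TTCCCA where it lies on the other strand, and numbers in the names give the first base of the site relative to the TSS in bp. The start of Lamb2 and the start of Nid1 each had 4 sites in their peak.
Lamb2 site at -891, chr9:108478818-108478877, plus strand: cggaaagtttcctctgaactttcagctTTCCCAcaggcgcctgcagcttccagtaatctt
Lamb2 site at -394, chr9:108479315-108479374, plus strand: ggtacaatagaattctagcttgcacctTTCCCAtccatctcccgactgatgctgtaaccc
Lamb2 site at 377, chr9:108480086-108480145, plus strand: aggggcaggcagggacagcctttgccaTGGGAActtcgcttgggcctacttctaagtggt
Lamb2 site at 472, chr9:108480181-108480240, plus strand: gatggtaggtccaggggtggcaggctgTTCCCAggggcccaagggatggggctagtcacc
Nid1 site at -107, chr13:13437417-13437476, plus strand: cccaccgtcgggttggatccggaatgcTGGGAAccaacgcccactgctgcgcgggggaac
Nid1 site at 143, chr13:13437682-13437711, plus strand: tgggaccacagtTGGGAAacatgctggacg
Nid1 site at 1296, chr13:13438820-13438879, plus strand: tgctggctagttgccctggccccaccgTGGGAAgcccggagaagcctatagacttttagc
Nid1 site at 1461, chr13:13438985-13439044, plus strand: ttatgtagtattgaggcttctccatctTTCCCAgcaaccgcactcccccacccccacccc

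The Lamc1 peak had 3 sites and the Nid2 peak had 1, near its upstream edge.
Lamc1 site at -488, chr1:153333242-153333301, minus strand: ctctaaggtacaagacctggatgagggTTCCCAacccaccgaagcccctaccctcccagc
Lamc1 site at -932, chr1:153333686-153333745, minus strand: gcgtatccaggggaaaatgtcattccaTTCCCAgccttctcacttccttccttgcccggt
Lamc1 site at -1105, chr1:153333859-153333918, minus strand: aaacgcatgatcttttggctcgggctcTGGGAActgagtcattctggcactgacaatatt
Nid2 site at -784, chr14:19750454-19750513, plus strand: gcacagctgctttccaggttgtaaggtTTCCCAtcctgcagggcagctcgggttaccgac

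The peak at the start of Lamc3 is shown whole, since these letters are absent from it. The central 200 bp of the Lamc1 peak stand beside it as the window with the highest GC content among the 18 peaks.
Lamc3 peak at the start, chr2:31887036-31887233, plus strand: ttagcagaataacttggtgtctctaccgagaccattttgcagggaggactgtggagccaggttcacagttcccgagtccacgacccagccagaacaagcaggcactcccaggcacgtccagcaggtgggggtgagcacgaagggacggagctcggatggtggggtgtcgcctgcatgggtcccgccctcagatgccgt
Lamc1 peak at the start, central 200 bp, chr1:153333014-153333213, minus strand: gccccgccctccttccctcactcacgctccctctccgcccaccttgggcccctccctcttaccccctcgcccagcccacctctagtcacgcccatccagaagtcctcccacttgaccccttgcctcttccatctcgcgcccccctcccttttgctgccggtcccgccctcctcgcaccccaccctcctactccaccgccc

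Away from the starts, the most sites were 2, in the fifth peak of Nid1 and in the first peak of Lama5. The second Nid1 peak had 1 site and was added after its values were seen, because that site lay 27 bp from the centre, the shortest such distance among the 22 sites.
Nid1 peak 5, central 200 bp, chr13:13573693-13573892, plus strand: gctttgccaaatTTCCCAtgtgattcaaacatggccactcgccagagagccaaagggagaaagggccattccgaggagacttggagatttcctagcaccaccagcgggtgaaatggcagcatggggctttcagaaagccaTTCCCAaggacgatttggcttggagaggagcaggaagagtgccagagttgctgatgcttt
Nid1 peak 2, central 200 bp, chr13:13461607-13461806, plus strand: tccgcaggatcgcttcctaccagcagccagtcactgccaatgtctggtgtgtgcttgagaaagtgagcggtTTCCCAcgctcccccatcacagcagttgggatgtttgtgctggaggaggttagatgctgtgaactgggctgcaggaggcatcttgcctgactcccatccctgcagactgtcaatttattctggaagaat
Lama5 peak 1, site at 54467, chr2:180171360-180171419, minus strand: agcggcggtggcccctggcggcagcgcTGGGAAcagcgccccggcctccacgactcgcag
Lama5 peak 1, site at 53798, chr2:180172044-180172073, minus strand: gggcaccaggctTGGGAAcagagcgcctga

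Peaks were present at both nidogens and both gamma chains, at 1 of 2 beta chains and at 2 of 4 alpha chains. In all, 7 of the 10 genes had a peak, beside 46.8% of all protein-coding genes under the same rule. The regions of the 10 genes were longer than those of all genes (median 200.8 kb and 94.0 kb), and longer regions more often hold a peak. With all genes split into 10 equal classes by region length, 33.8 to 63.9% of the genes in the classes of the members had one. The genes without a peak were Lama1, Lama4 and Lamb1. A peak centred within 1 kb of the TSS was found for 5 of the 10 genes (Lamb2, Lamc1, Lamc3, Nid1 and Nid2), where the share of all genes was 24.9% and the shares in the same length classes ran from 22.1 to 29.2%. None of the 4 alpha chains was among them. The gene body itself held a peak centre in 4 of 10 genes (Lama2, Lamc1, Lamc3 and Nid1), and in 25.2% of all genes. The shares of all genes and of the length classes include genes on chromosomes 4, 7 and X, where peaks are few. None of the 10 genes lies there, and shares without these chromosomes are not given here. No test was run over these 10 genes, which were chosen with earlier results of these data known.

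The peaks per chain type are given beside the number that the mean density of peaks on each chromosome gives for these regions. The 2 nidogens had 8 peaks (1.64 from density) and the 2 gamma chains had 4 (1.68 from density). The 4 alpha chains had 5 (10.8 from density) and the 2 beta chains had 1 (0.486 from density). The alpha chains were thus the only type with fewer peaks than density gives, and no difference between the types was tested. In total the 10 genes had 18 peaks, and density gives 14.6. Over all protein-coding genes the same sums were 18258 observed and 19800 from density. Lama2 alone accounts for 6.61 of the peaks given by density, and it had 3. Beside genes of similar region length, however, Lama2 was not low. Of these genes 79.6% had fewer peaks, and their median was 1.

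**Figure D1:**
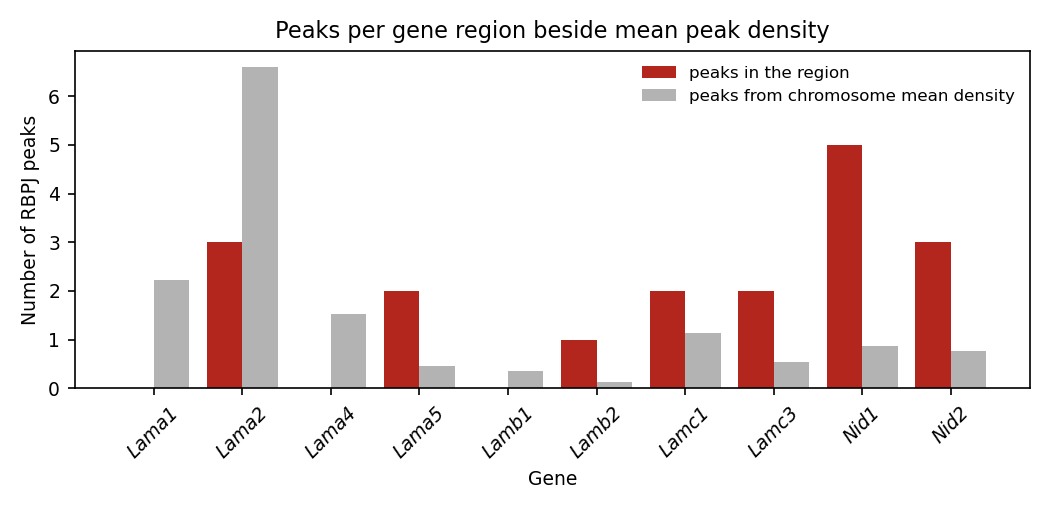
Number of RBPJ peaks in the region of each gene (red) beside the number that the mean density of peaks on its chromosome gives for a region of that length (grey). Nid1 had 5 peaks where density gives 0.875, whereas Lama2 had 3 where density gives 6.61, and no red bar is drawn for Lama1, Lama4 and Lamb1, which had 0. Among genes with regions as long as that of Lama2, the median was 1 peak.

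**Figure D2:**
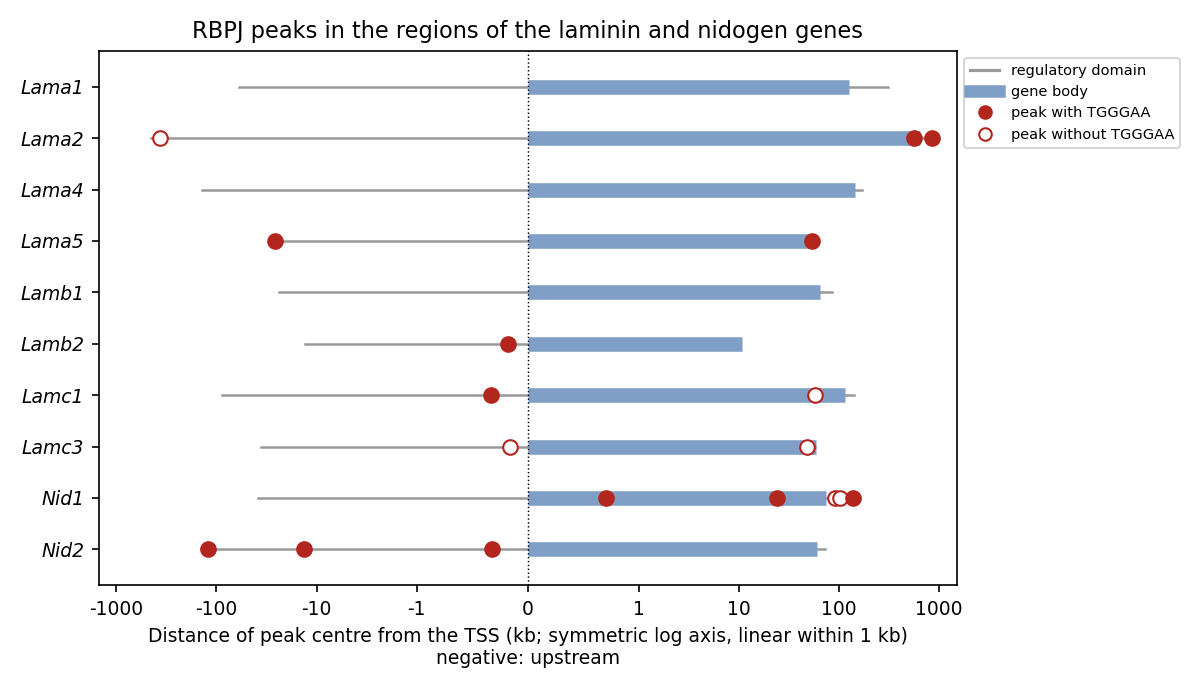
Positions of the 18 peak centres relative to the TSS of each gene in kb, upstream to the left, on a symmetric logarithmic axis that is linear within 1 kb. Bars are gene bodies, lines are regulatory domains, and filled circles are the 12 peaks that hold TGGGAA anywhere in the peak. The circles of Lamb2, Lamc1, Lamc3, Nid1 and Nid2 within 1 kb of the TSS are the promoter peaks, and the lines of Lama1, Lama4 and Lamb1 are empty.

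The alpha chains carry the domains through which laminins bind cell surface receptors, and they largely set in which tissues a laminin is found. Lama2 encodes the alpha 2 chain, which is known for its role in muscle and peripheral nerve and is also found around brain vessels. Its region on chromosome 10 (gene from 26980036 to 27619758, minus strand) was the longest of the 10, with 1315 kb. Of its 3 peaks, 1 lay in the gene: chr10:27063845-27064123, 279 bp wide, was centred in intron 41, 556 kb downstream of the TSS and 7339 bp from the start of a shorter Lama2 transcript. It held 1 TGGGAA site, 66 bp from its centre. The other peaks lay outside Lama2. That at chr10:26772169-26773217 (1049 bp, 1 site) was in the body of Arhgap18, 847 kb downstream of the Lama2 TSS, and that at chr10:27988016-27988637 (622 bp, 0 sites) lay 369 kb upstream. The nearest peaks to either side of the Lama2 TSS were 924 kb apart, and 94.7% of gaps between neighbouring peaks in the list were shorter.

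Lama5 encodes the alpha 5 chain, which is found in mature endothelial and epithelial basement membranes. The gene lies on chromosome 2 (180176373 to 180225859, minus strand) in a region of 79.9 kb, in which density gives 0.455 peaks. It had 2 peaks, more than 86.7% of the genes in its class by region length, and both lay close to the edges of the region. The first, chr2:180171255-180173916, was 2662 bp wide and was the widest of the 18. Its centre lay 99 bp inside the edge of the Lama5 region, 53.3 kb downstream of the Lama5 TSS and within the body of Adrm1, a proteasome subunit gene, at 1100 bp from the TSS of that gene. The second, chr2:180251250-180252068 (819 bp, 1 site), was centred 25.8 kb upstream of Lama5, 717 bp inside the edge, and 5718 bp from the TSS of Rps21, a ribosomal protein gene. When each peak was given only to the gene with the nearest TSS, taking the 5′ end of the gene record as the TSS of a gene, Lama5 kept neither peak and Lama2 kept none of its 3, although the intron 41 peak lies 7339 bp from the start of the shorter Lama2 transcript.

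Lama1 and Lama4 had no peak. Lama1 encodes the alpha 1 chain of early embryonic basement membranes. Its region on chromosome 17 (gene from 67697259 to 67822647, plus strand) spans 365 kb, for which density gives 2.23 peaks, and 63.9% of genes with regions of similar length had a peak. The nearest peak, chr17:67353455-67354866, was 343 kb upstream, at 297 bp from the TSS of Ptprm, a receptor-type phosphatase gene. Lama4 encodes the alpha 4 chain, a main component of endothelial basement membranes. The gene lies on chromosome 10 (38965515 to 39110188, plus strand) with a region of 306 kb, for which density gives 1.54 peaks. Its nearest peak, chr10:39520424-39520824, was 555 kb downstream, in the body of the kinase gene Fyn. Both genes lay in long stretches without a peak, with 2028 kb between neighbouring peaks around Lama1 and 2183 kb around Lama4, where the median gap was 67.5 kb. Of all gaps, 98.2% were shorter than that around Lama1 and 98.3% shorter than that around Lama4.

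Of the beta chains, Lamb2 had a promoter peak and Lamb1 had no peak. Lamb1 encodes the beta 1 chain, the widely expressed beta chain, and Lamb2 the beta 2 chain, which is found at the neuromuscular synapse, in the kidney glomerulus and in vessel walls. Lamb2 (chromosome 9, 108479736 to 108490530, plus strand) had the shortest region of the 10, at 24.0 kb, in which density gives 0.131 peaks and where 33.8% of genes of similar region length had a peak. Its single peak, chr9:108478777-108480339, was 1563 bp wide, was centred 178 bp upstream and covered the TSS. Its 4 TGGGAA sites were more than 89.7% of peaks of similar width had, but the site nearest to the centre was 214 bp away from it. Lamb1 (chromosome 12, 31265234 to 31329644, plus strand) had no peak in 109 kb, where density gives 0.355 and 48.9% of genes of similar length had one. The nearest peak to Lamb1, chr12:31059384-31059825, was 206 kb upstream.

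Both gamma chain genes had a promoter peak and a peak in an intron. Lamc1 encodes the gamma 1 chain, which is shared by most laminins and carries the binding site for nidogens. At Lamc1 (chromosome 1, 153218922 to 153332786, minus strand) the promoter peak chr1:153332189-153334039 was 1851 bp wide, was centred 328 bp upstream and covered the TSS. Its 3 TGGGAA sites lay between the centre and the upstream edge, the nearest at 157 bp from the centre. The other Lamc1 peak, chr1:153274618-153275183 (566 bp, 0 sites), lay in intron 1, 57.9 kb downstream of the TSS.

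Lamc3 encodes the gamma 3 chain, which occurs in fewer laminins and is known for human malformations of the cerebral cortex. The promoter peak of Lamc3 (chromosome 2, gene from 31887291 to 31946539, plus strand) was the narrowest of the 18 at 198 bp, and 3.64% of all peaks were narrower. It ran from 31887036 to 31887233, was centred 157 bp upstream and ended before the TSS. The second Lamc3 peak, chr2:31934653-31935388 (736 bp), was centred in intron 23, 47.7 kb downstream, and 37.2% of its bases were repeats (soft-masked in the reference). Its centre was closer to the TSS of another protein-coding gene, at 15.1 kb, and also lay in the domain of that gene. Neither Lamc3 peak held TGGGAA, so that Lamc3 was the only one of the 7 genes with a peak for which these letters were absent from every peak.

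Both nidogen genes had a promoter peak and further peaks. Nid1 (chromosome 13, 13437551 to 13512269, plus strand) had 5 peaks in 186 kb, where density gives 0.875 and 96.9% of genes of similar region length had fewer. The promoter peak chr13:13437426-13439090 was 1665 bp wide. It covered the TSS but extended mostly into intron 1, with its centre 707 bp downstream of the TSS. None of its 4 TGGGAA sites lay within 500 bp of its centre, and the nearest was at 562 bp. The second peak, chr13:13461531-13461884 (354 bp), was also in intron 1, 24.2 kb downstream.

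The other 3 Nid1 peaks lay beyond the 3′ end of the gene. They were chr13:13529198-13529511 (314 bp, 0 sites), chr13:13538660-13538990 (331 bp, 0 sites) and chr13:13573564-13574022 (459 bp, 2 sites), at 91.8, 101 and 136 kb from the Nid1 TSS. All of them were closer to the TSS of the next gene, Lyst, a regulator of lysosome trafficking, at 61.0, 51.6 and 16.6 kb. The region of Lyst also includes the second Nid1 peak, so that the promoter peak was the only one of the 5 assigned to Nid1 alone. With each peak given only to the nearest TSS by the same definition, Nid1 kept 2 of its 5 peaks and Nid2 kept 2 of 3. The 10 genes together then had 8 peaks instead of 18, with 2 at Lamc1 and 1 each at Lamb2 and Lamc3.

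Nid2 encodes the second nidogen, which is enriched in vessel walls. It lies on chromosome 14 (19751265 to 19811787, plus strand) and had 3 peaks in 215 kb, where density gives 0.767 and 86.3% of genes of similar length had fewer. The promoter peak, chr14:19750467-19751428 (962 bp), was centred 318 bp upstream and covered the TSS. Another peak, chr14:19737731-19737956 (226 bp), was centred 13.4 kb upstream, and 38.9% of its bases were soft-masked. The third, chr14:19630500-19630891 (392 bp), was 121 kb upstream. It was closer to the TSS of another protein-coding gene, at 28.1 kb. The domain of that gene includes this peak and the one 13.4 kb upstream, so that the promoter peak was the only one assigned to Nid2 alone. Each of the 3 held 1 TGGGAA site, in no case within 100 bp of the centre, the distances being 464, 107 and 142 bp. In contrast to Nid1, all Nid2 peaks were centred upstream of the TSS.

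**Figure D3:**
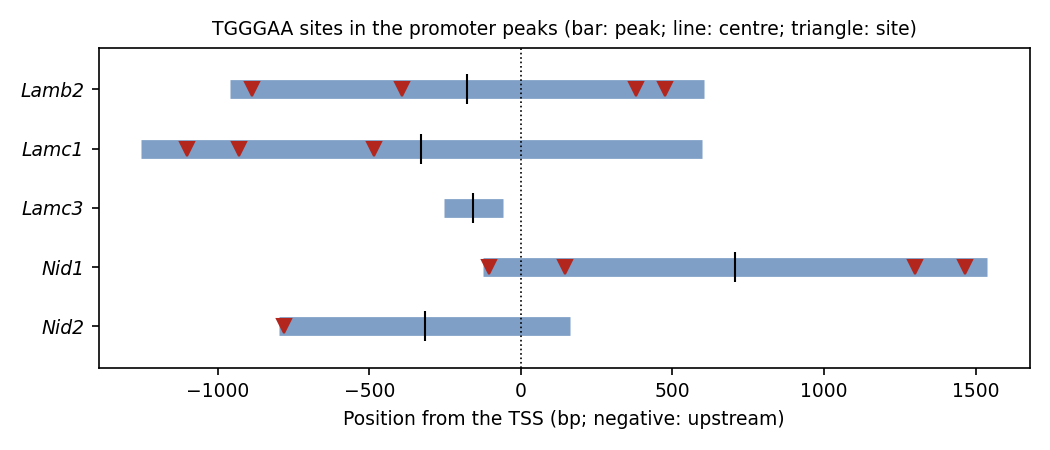
Extent of the 5 promoter peaks (bars) relative to the TSS in bp, with peak centres as vertical lines and TGGGAA sites as triangles. The peaks of Lamb2, Lamc1, Nid1 and Nid2 cover the TSS, that of Lamc3 does not and has no triangle, and no triangle is closer than 157 bp to a centre.

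Promoter peaks and the other peaks of these genes differed in form. The 5 promoter peaks had a median width of 1563 bp (range 198 to 1851) and a median GC content of 61% in their central 200 bp. For the other 13 peaks the median width was 459 bp (226 to 2662) and the median GC content 50%. The list as a whole had medians of 829 bp and 66% for the 5489 peaks within 1 kb of any TSS and of 523 bp and 49.5% for the 5605 peaks farther away. Among the promoter peaks, GC content ran from 50.5% at Lamb2 to 69.5% at Lamc1, with 67% at Nid2, 61% at Lamc3 and 58.5% at Nid1.

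**Figure D4:**
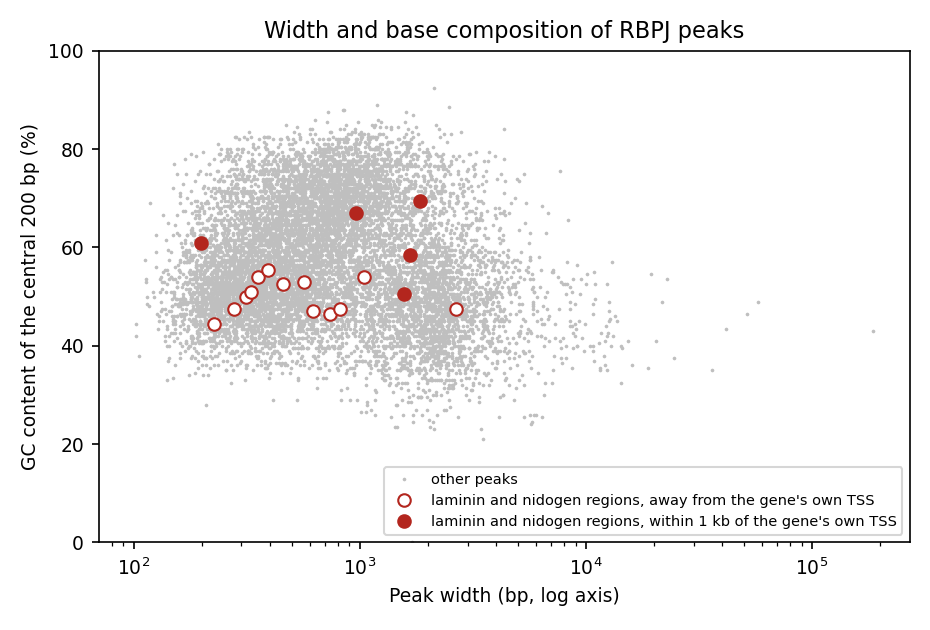
Width in bp (logarithmic axis) and GC content of the central 200 bp in percent for each of the 11094 peaks (grey) and the 18 peaks of the laminin and nidogen genes (circles). The promoter peaks (filled) of Lamc1 and Nid2 lie at 69.5% and 67%, whereas the other 13 peaks (open) lie between 44.5 and 55.5%.

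The letters TGGGAA were then searched on both strands. Of the 18 peaks, 3 held them within the central 200 bp, namely the second peak of Lama2, the second of Nid1 and the fifth of Nid1, beside 25.8% of all peaks. The 95% exact binomial interval of 3 in 18 was 3.58 to 41.4%, and 2 of the 3 peaks belong to Nid1. None of the 5 promoter peaks had the site in this window, for which the interval reached 52.2%, and 16.2% of all peaks within 1 kb of a TSS did. The 3 peaks with a site were among the other 13, of which 1, the first Lama5 peak, is itself within 1 kb of a transcript start of another gene. Of all peaks farther from a TSS, 35.3% had the site.

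Over whole peaks, 12 of 18 held TGGGAA, or 66.7%, and 64.9% of all peaks did. Together the 18 peaks had 22 sites in 15.1 kb, or 1.46 per kb, and the list had 1.25 per kb. The 5 promoter peaks had 12 of these sites, at 1.92 per kb, and the other 13 peaks had 10, at 1.14 per kb. In the list the order was the opposite, with 1.04 per kb near a TSS and 1.43 per kb farther away. These differences within the 18 peaks rest on few sites and were not tested. None of the 22 sites was in soft-masked sequence, 10 were on the strand of the gene, and 6 were part of the longer GTGGGAA. No pair of TGGGAA or TGAGAA sites facing each other was found with 11 to 21 bp between its members, a spacing at which RBPJ complexes can pair on DNA.

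Other motifs were counted in the central 200 bp in the same way, and no match says only that the letters are not in that window. TGANTCA, recognised by AP-1 factors, was in 4 of 18 peaks (the second of Lama2, the third of Lama2, the third of Nid1 and the fifth of Nid1) and in 10.4% of all peaks, or 17.7% of those away from a TSS. The GC box GGGCGG was in the promoter peaks of Lamc1, Lamc3 and Nid1 and in none of the other 13, beside 52.0% and 9.10% of all peaks near and away from a TSS. At Lamc1 it occurred 4 times in this window. TGTGGT, read by RUNX factors, was in 3 peaks (12.1% of the list), CCAAT, read by NF-Y, in 3 (19.9%), GGAATG, read by TEAD factors, in 2 (11.9%), and the E-box CACGTG in none (4.11%). GGAATG can share letters with TGGGAA, and 3 of the 22 TGGGAA sites overlapped it.

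Promoter sequences of 300 bases, 250 before and 50 after the start that RefSeq gives (GRCm38.p6), were at hand for 5 of the 10 genes: Lama2, Lama5, Lamb1, Lamb2 and Nid1. Of 32851 such promoters, 25.6% held TGGGAA on either strand. Lamb1, which had no peak, had 2 TGGGAA sites in its promoter, and Lama2 had 1 in a promoter whose start is 2816 bp from the TSS used above, likewise without a peak. Lamb2, whose 300 bases are all covered by its peak, had none in them. Nid1 had 1 in 300 bases, of which the peak covers 226. Lama5, without a peak at its start, had 0 TGGGAA sites and 4 GC boxes, and GC boxes were found in 35.7% of the promoters.

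Other components of the basement membrane and its receptors, 23 genes in 4 lists, were placed beside these genes by the same rule. Collagen IV chains, which form the second network of the basement membrane, had a peak in 3 of 6 (Col4a1, Col4a2 and Col4a4), none of them with a peak centred within 1 kb of the TSS. The only peak centred in a basal domain was that of Col4a2, chr8:11309705-11312958, which covers the starts of Col4a1 and Col4a2 but is 3254 bp wide and was centred 1474 bp upstream of Col4a2, with 4 TGGGAA sites. Among proteoglycans and related collagens, Col15a1 and Col18a1 had a peak and Hspg2 and Agrn did not. Hspg2, Agrn and Col15a1 are on chromosome 4, and Bcam is on chromosome 7, where peaks are few (density gives 0.124 peaks for the 119 kb region of Hspg2), whereas none of the 10 laminin and nidogen genes is on chromosome 4, 7, X or Y.

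Of 7 laminin receptor genes, 5 had a peak and 4 of these had it centred within 1 kb of the TSS: Itga3 at 283 bp, Itgb1 at 233 bp and Itgb4 at 861 bp downstream, and Dag1, which encodes dystroglycan, at 3 bp. The peak of Itgb4 held 3 TGGGAA sites, those of Itgb1 and Dag1 held 1 each and that of Itga3 held 0. Itga6 had a distal peak, and Itga7 and Bcam had none. All 6 other basement membrane glycoproteins (Ntn4, Sparc, Fbln1, Fbln2, Smoc1 and Smoc2) had a peak, with that of Fbln1 centred 670 bp and that of Fbln2 1399 bp upstream of the TSS. No difference between the lists was tested.

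**Figure D5:**
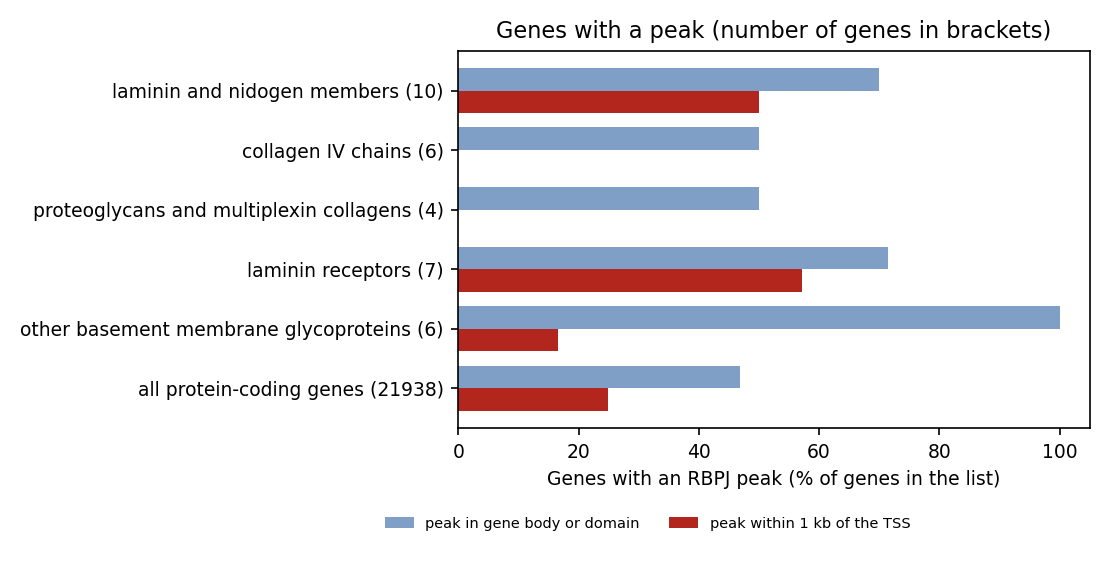
Percentage of genes with an RBPJ peak in the gene body or regulatory domain (blue) and within 1 kb of the TSS (red), for the 10 laminin and nidogen genes, the 4 other lists and all 21938 protein-coding genes. The 10 genes stand at 70% and 50%, all genes at 46.8% and 24.9%, and the lists hold only 4 to 10 genes each. All genes include those on chromosomes 4, 7 and X, where peaks are few and none of the 10 genes lies.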

How the data were processed

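RBPJ ChIP-seq was done by the authors in RD1 cells. Following the methods of the study, reads were aligned to GRCm38 with bowtie and duplicates were removed. Peaks were called with MACS2 and PeakRanger per replicate, merged within 2 kb and kept where at least 3 calls overlapped, and blacklisted regions were discarded. Each deposited interval gives its bounds as positions in bp and carries no score. A merged peak can be wider than the bound site, so that its centre need not mark that site. The files of RBPJ replicates 1 and 2 were identical and counted as 1 list. Sequencing depth was not available here, so intervals (95%, Clopper-Pearson) cover counting error only.

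Starts were counted from 1, and 0 peaks ran past a chromosome end of GRCm38.p6. Regions followed association rule 1 of GREAT with GENCODE M21. Motifs were counted on both strands in the central 200 bp. The 10 genes, the 4 lists and the motifs were chosen with earlier results of these data known, and all comparisons are descriptions without a test. Named were all 10 genes with every peak, other basement membrane genes with a peak in the basal domain (others by name), and genes at a peak of a member or nearest to a member without one. Rps21 and Lyst were named after values were seen. A further list of genes is not reported here. Alternatives covered overlap, region, width, nearest TSS, replicate, window, motif, TSS set and distance. Counting scripts were tested on simulated data. Scripts ran under Python 3.11.15 with pysam 0.24.0, matplotlib 3.10.9, scipy 1.17.1, pandas 2.3.3 and numpy 2.4.6.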

Additional observations from a re-analysis of the deposited data

How the results depend on the processing

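Of 30 alternative values, 20 stayed within 1.5 times of those reported and 10 moved. Those within it include 13 peaks with domains extended by at most 100 kb, 5 genes with a peak for the basal domain alone or the nearest TSS, and 7661 of all genes with peaks of at least 500 bp. With the gene body alone, 5 peaks and 4 of the 10 genes were left, with 5518 of all genes. With the basal domain alone, 5 peaks were left and 5946 of all genes. Peaks of at least 500 bp numbered 10. With each peak given only to the gene with the nearest TSS (5′ end of the gene record), an alternative for the peak count chosen after seeing the data, 8 peaks were left. Peaks of the 10 genes with TGGGAA were 12 over whole peaks, 1 for GTGGGAA in the central 200 bp, and 0 among peaks of at least 500 bp in that window. Smaller regions, fewer peaks, a larger window and a longer motif change these counts by construction. Lama1, Lama4 and Lamb1 had no peak in any of the settings run for the regions. Without RBPJ replicate 1 or 2 there were 18 peaks at 7 genes, since either file holds every peak. No paired analysis was possible because the replicates share a single list and groups of samples were not compared. The stricter score threshold that was planned was not run, as scores are lacking. Lack of a peak at Lama1, Lama4 or Lamb1 does not show that RBPJ was not bound there, since neither depth nor replicate lists were at hand.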

Other observations

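Col4a1 and Col4a2, the chains of the main collagen IV trimer, are transcribed in opposite directions from a shared promoter on chromosome 8. Their regions together held 11 distinct peaks, from 203 to 3254 bp wide, of which 9 held TGGGAA and 4 held it in the central 200 bp. Density gives 1.39 peaks for the region of Col4a1, which had 8, and 2.17 for that of Col4a2, which had 10. The widest peak lies at the shared start, and the others extend to 157 kb on the side of Col4a1 and 164 kb on the side of Col4a2.

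In the promoter peak of Lamc1 and the fifth peak of Nid1, TGGGAA and TGANTCA stood 1 and 2 bases apart. At most 5 bases separated these motifs in 125 of the 11094 peaks (1.13%) and in 2 of the 18. The spacing was noticed after the sequences were seen, and no test was run on it.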
